A study of Homo sapiens with 6 samples.

Results

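The 40 genes described here encode nucleolar factors of ribosome synthesis. They comprise the core proteins of small nucleolar ribonucleoproteins (snoRNPs), factors of small and large ribosomal subunit assembly, and components of RNA polymerase I transcription. They were taken by symbol from the 57905 gene identifiers of the deposited table, and all 40 were found. A549, the cell line used, is established from a human lung adenocarcinoma. In 3 samples the cells had been transfected with the microRNA miR-19a at 25 nM, and in 3 samples with a negative control, miR-NC, at the same dose. Harvest is given as 24 h in both groups, and RNA was sequenced after selection of polyadenylated transcripts. The labels give no sequence for miR-NC and do not say if replicates came from different cultures. The p-values therefore reflect variation among the 3 deposited replicates per group, and that variation may be only technical.

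Ribosome synthesis begins in the nucleolus, where RNA polymerase I transcribes the precursor of the large ribosomal RNAs. Box C/D snoRNPs guide ribose methylation of this precursor, box H/ACA snoRNPs guide its pseudouridylation, and large assemblies of processing factors fold and cut it into the small and large subunits. The demand for these factors is known to follow growth, and many of their genes are known targets of the transcription factor MYC. miR-19a belongs to the cluster transcribed as MIR17HG and lowers messenger RNAs that pair with its seed, bases 2 to 8 from its 5′ end.

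The mature strand of miR-19a is shown because its seed defines the sites searched for in the members. Sequence and position are from RefSeq (GRCh38.p14, chromosome 13, plus strand, 91350939 to 91350961), and capitals mark the seed.

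hsa-miR-19a-3p: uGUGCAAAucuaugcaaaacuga

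A target carries the reverse complement of the seed. The strongest class, the 8mer TTTGCACA, pairs with the whole seed and has an A opposite the first base. The 7mer-m8 TTTGCAC lacks that A, the 7mer-A1 TTGCACA lacks the match to base 8, and the 6mer TTGCAC lacks both. In 3′ untranslated regions (UTRs) of GENCODE v29 transcripts, 3 of 40 members (7.5%) carried a site of 7 or more bases, against 18.6% of 10550 tested genes with a 3′ UTR. No member had an 8mer there. The median 3′ UTR was shorter in the members, 443 bases against 999. The sites are printed in 23-base stretches of the transcript, 5′ to 3′, with the site in capitals. They lie on GRCh38 in the last exon of DKC1 (chromosome X, plus strand, 154777415 to 154777421), DDX18 (chromosome 2, plus strand, 117831581 to 117831587) and POLR1A (chromosome 2, minus strand). POLR1A held 2 sites of the 7mer-m8 class (86025121 to 86025127 and 86023413 to 86023419) and 2 of the 7mer-A1 class (86025448 to 86025454 and 86020897 to 86020903) in a 3′ UTR of 7207 bases.

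DKC1, 7mer-m8: cctagaggtcagtccTTTGCACt
DDX18, 7mer-m8: tggatttggtaagccTTTGCACt
POLR1A, first 7mer-m8: tttttgagatgcactTTTGCACt
POLR1A, the other 7mer-m8: tcttaaaatttttagTTTGCACc
POLR1A, first 7mer-A1: acagacatttgggagcTTGCACA
POLR1A, the other 7mer-A1: aattgtgttcattaaaTTGCACA

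Sites of 7 or more bases before the 3′ UTR were found in 8 members (20%), against 15.6% of the 10550 tested genes with a 3′ UTR. All 8 lay in coding sequence, and the only 8mer among them was in WDR3 (chromosome 1, plus strand, 117952060 to 117952067, exon 17 of 27).

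WDR3, coding 8mer: tgccacaagtctctcTTTGCACA

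Libraries held between 15699037 and 17957932 counts over genes. Single members had between 143 counts (PPAN) and 19600 counts (NPM1) in a library, and every member other than PPAN had at least 455. Libraries of one group differed by a chi-square per gene of 1.59 to 4.15, and libraries of different groups by 26.6 to 30.2. Keratins KRT8, KRT18 and KRT7 and vimentin were abundant, with at least 1418 CPM (counts divided by the scaled library total, per 1e6) in each library. With miR-19a KRT8, KRT18 and vimentin (VIM) rose by 21.1%, 29.9% and 10.4% and KRT7 fell by 17.6%, changes of the size seen in the members, and their part in the members' changes was not tested. EPCAM, another epithelial marker, was near 0, at 0.946 to 2.35 CPM. Of 5 lung fibroblast markers, DCN and COL1A2 were at 0 in 5 and 4 of the 6 libraries. Their sum rose from between 8.14 and 10.2 CPM in miR-NC to between 24.2 and 28.0 CPM in miR-19a, nearly all of it COL1A1, and its part in the members' changes was not tested. Immune and endothelial markers summed to 0.568 CPM or less.

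The comparison asks which of these transcripts differed between miR-19a and miR-NC. Most members were lower with miR-19a, and none passed as higher. Of the 40 members, all of which were tested, 24 (60%) passed an adjusted p of 0.05 as lower in edgeR's quasi-likelihood test, where 23.5% of 12452 tested genes did. The number passing as higher was 0, where 24.9% of all tested genes were called higher. One member, DDX21, was higher at an unadjusted p under 0.05, and DESeq2 and limma also called 0 members higher. The median log2 fold change over members was -0.15, against -0.0045 over all tested genes, and 38 of 40 values lay below 0. Changes were small: those of the 24 members that fell ran from -7.55% to -28.3% with a median of -14.1%. For 28 members (70%) the 3 miR-19a libraries all lay below the 3 miR-NC libraries, as they did for 26.4% of tested genes. DDX21 was the only member with all miR-19a libraries above, an order that 27.6% of tested genes showed. In bulk RNA a lower level in every cell and a change in a part of the cells cannot be told apart.

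**Figure D1:**
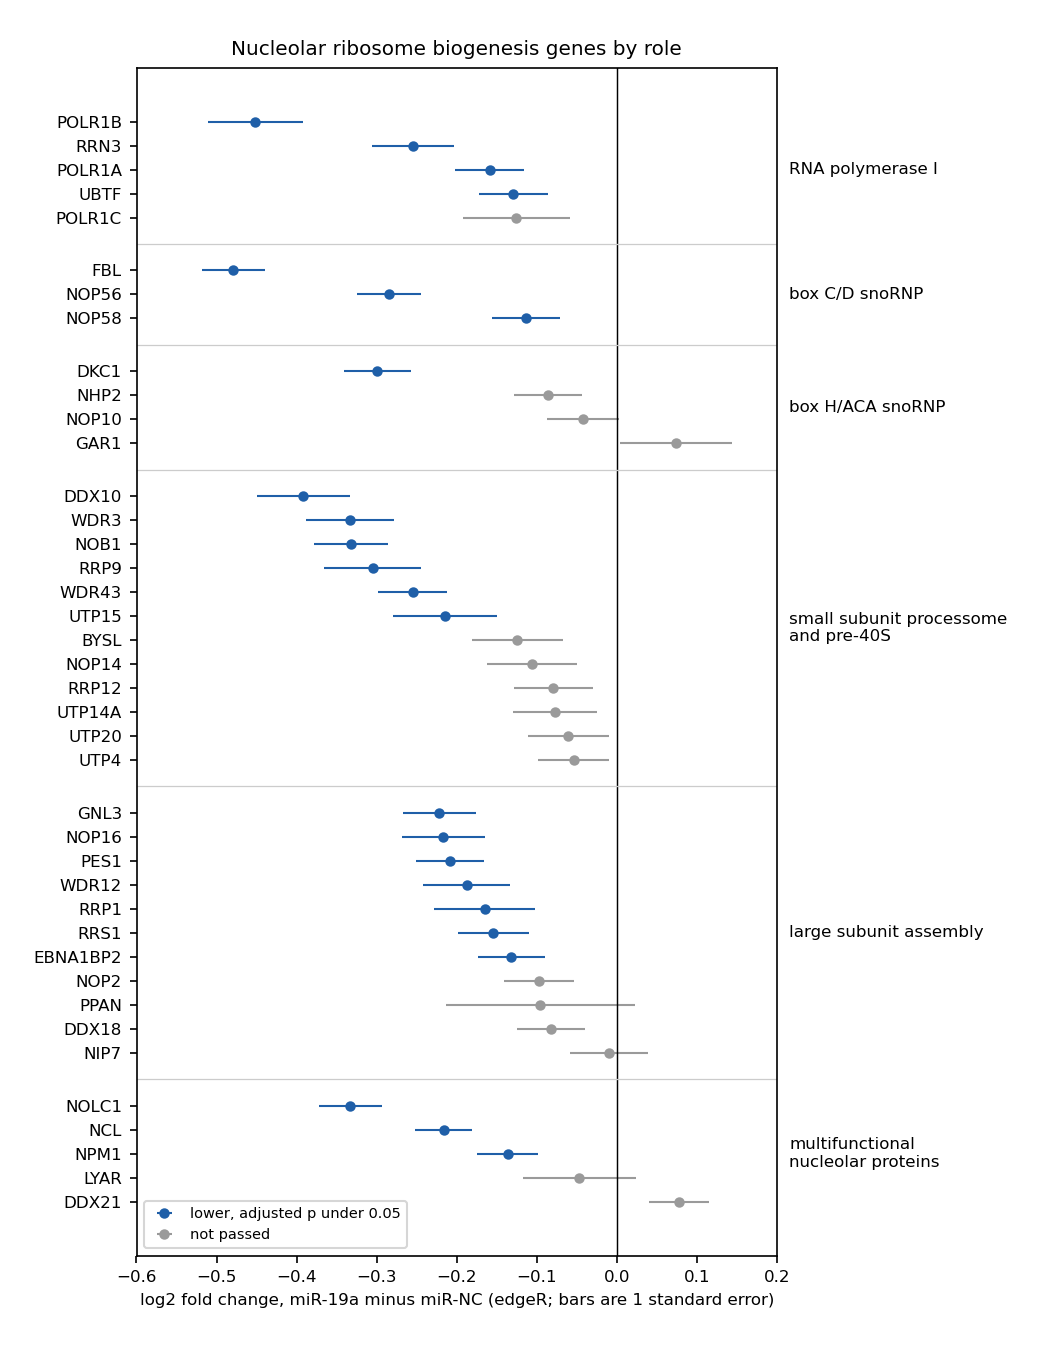
Log2 fold change (miR-19a minus miR-NC) of the 40 genes, with bars of 1 standard error, in rows grouped by role. Blue points are the 24 genes that passed an adjusted p of 0.05, all to the left of 0, and grey points the 16 that did not.

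Summed over the 40 members, CPM were 6681, 6381 and 6843 in miR-NC replicates 1 to 3 and 5874, 5831 and 5868 in miR-19a replicates 1 to 3. The sums did not overlap, and the mean was lower by 11.7% with miR-19a. miR-NC replicate 2 had the lowest value of its group for 24 of the 40 members. Over all genes another control, miR-NC replicate 3, had the lowest chi-square per gene to each miR-19a library (26.6 to 28.2). Without miR-NC replicate 2, 26 members were lower, beside 22.5% of all tested genes, and the members' median moved from -0.15 to -0.18. Nucleophosmin (NPM1) alone made up 1148 CPM of the control sum, and without it the sum was lower by 12.3%.

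**Figure D2:**
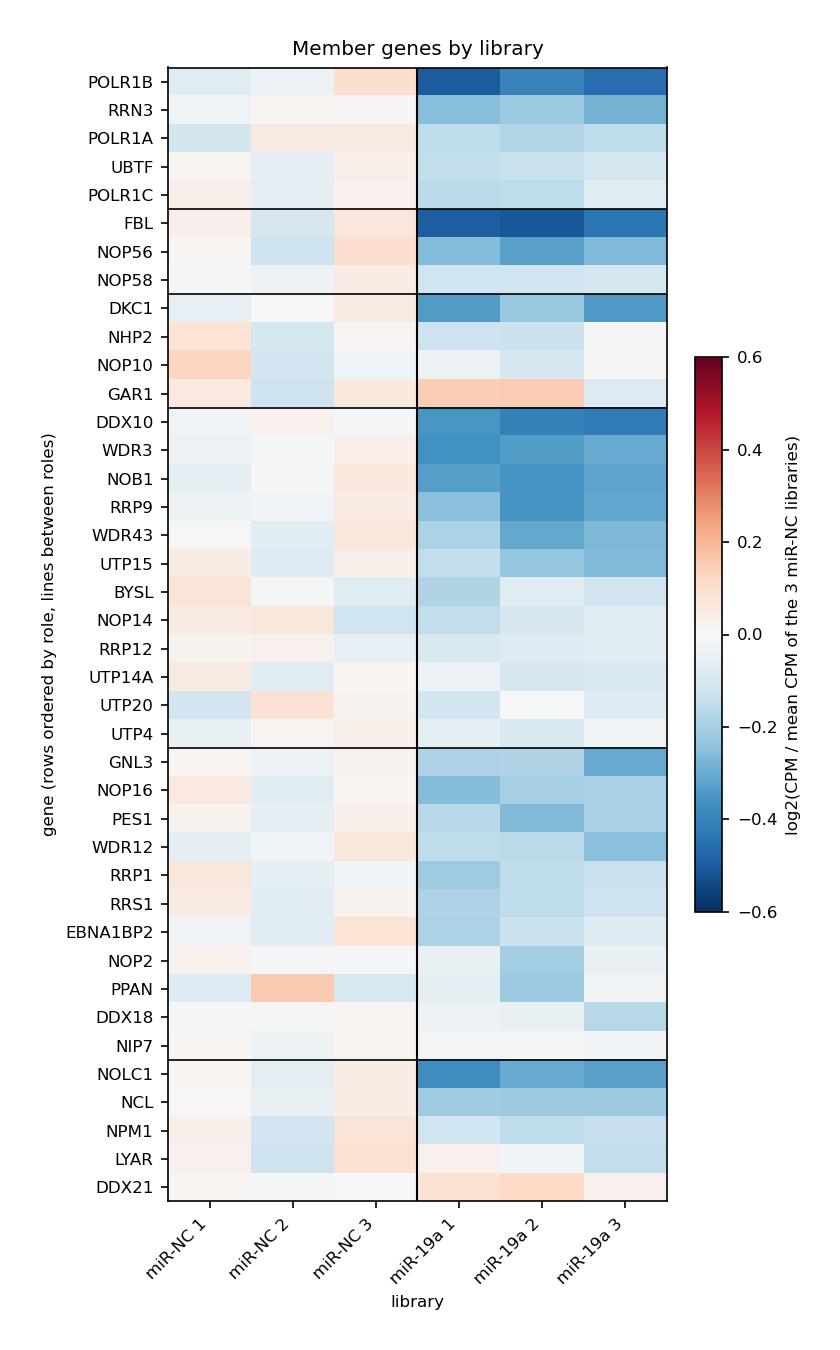
Each cell is the log2 ratio of a gene's CPM in 1 library to its mean over the 3 miR-NC libraries, with genes in rows ordered by role. The miR-19a columns are blue for most rows. FBL and POLR1B have the largest negative ratios, and DDX21 has positive ratios in all 3 miR-19a columns.

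Genes of RNA polymerase I transcription were lower in 4 of 5 cases (80%, against 23.5% of all tested genes). Their median log2 fold change was -0.16. POLR1B, the second largest subunit, had 51.6, 52.9 and 58.1 CPM in miR-NC and 38.3, 41.0 and 39.5 CPM in miR-19a. All 3 miR-19a libraries lay below all controls, and POLR1B had the second largest fall of the members, -0.45 (SE 0.060, adjusted p = 1.7e-09). RRN3, the initiation factor that makes the polymerase competent to start, went from 71.1, 73.2 and 72.6 to 60.7, 61.9 and 59.3 CPM. Its log2 fold change was -0.25 (SE 0.051, adjusted p = 2.7e-05). RRN3 has 4 annotated copies whose counts reached 17.5% of its own, so reads may be shared between them. POLR1A, the largest subunit and the carrier of 4 sites printed above, read 142.0, 158.3 and 159.2 CPM in the controls and 137.9, 135.6 and 138.0 CPM with miR-19a. POLR1A fell by 0.16 (SE 0.043, adjusted p = 0.0016), and the call ended with limma on TPM (adjusted p = 0.093). A part of the sites in this fall was not tested. UBTF, which binds the ribosomal DNA promoter, fell by 0.13 (SE 0.044, adjusted p = 0.011). That call ended when miR-NC replicate 3 (adjusted p = 0.053) or miR-19a replicate 1 (adjusted p = 0.056) was left out, and with limma on TPM (adjusted p = 0.081). POLR1C, a subunit shared with RNA polymerase III, did not pass at -0.13 (SE 0.067, adjusted p = 0.12) but did with limma on FPKM (adjusted p = 0.042). Its exons overlap XPO5 and YIPF3 on the opposite strand over 6.27% and 2.32% of exon bases. These had up to 1197 and 973 counts in a library, POLR1C itself 483 to 568. The strand setting of the counting is not stated, so the POLR1C count is uncertain.

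The box C/D snoRNP was the role in which all members, 3 of 3, fell, with a median of -0.28. Of all tested genes 23.5% fell. Fibrillarin (FBL), its ribose methyltransferase, showed the largest fall of all 40 members. It had 378.1, 345.6 and 387.8 CPM in miR-NC and 263.1, 260.1 and 274.1 CPM in miR-19a, a change of -28.3%, or -0.48 on the log2 scale (SE 0.040, adjusted p = 8.1e-17). FBL carries no 7-base site, only a 6mer in a 3′ UTR of 80 bases. NOP56, a core scaffold protein of the particle, had 407.7, 370.9 and 434.0 CPM in the controls and 337.1, 322.2 and 336.1 CPM with miR-19a, or -0.28 on the log2 scale (SE 0.040, adjusted p = 1.3e-08). Its partner NOP58 stood at 133.6, 131.3 and 139.2 CPM against 124.1, 124.0 and 125.3 CPM. The groups did not overlap, but the change was the smallest of the 24 that passed, -0.11 (SE 0.043, adjusted p = 0.023). The NOP58 call ended when miR-NC replicate 3 (adjusted p = 0.12), miR-19a replicate 1 (adjusted p = 0.073) or miR-19a replicate 2 (adjusted p = 0.059) was left out. It also ended with no filter (adjusted p = 0.077) and with limma on TPM (adjusted p = 0.093).

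Ratios of subunits within a library do not depend on the scaling. They were taken for 12 pairs within the same particle or polymerase, chosen after the fold changes were known, and 6 of the 12 overlapped between groups. FBL counts were 2.83, 2.63 and 2.79 times those of NOP58 in miR-NC and 2.12, 2.10 and 2.19 times in miR-19a. NOP56 stood at 3.05, 2.83 and 3.12 times NOP58 in the controls and 2.72, 2.60 and 2.68 times with miR-19a. Neither pair overlapped between groups, and both gave a two-sided exact permutation p = 0.10, the smallest that 3 against 3 allows. Since this design cannot reach 0.05, the ratios are given as a description, with an adjusted value of 0.20 over the 12 pairs. Of the polymerase pairs, the ratio of POLR1A to POLR1B went from 2.75, 2.99 and 2.74 to 3.60, 3.31 and 3.50, with the same exact p, whereas that of POLR1A to POLR1C overlapped (4.18, 4.96 and 4.71 against 4.63, 4.54 and 4.37, exact p = 0.80).

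In the box H/ACA snoRNP 1 of 4 members (25%) passed as lower, close to the 23.5% of all tested genes. Dyskerin (DKC1), the pseudouridine synthase of the particle and a component of telomerase, had 184.2, 190.3 and 198.2 CPM in miR-NC and 151.3, 163.2 and 150.8 CPM in miR-19a. It fell by 0.30 (SE 0.042, adjusted p = 7.5e-09), and it is the member that carries a single 7mer-m8 site among those that fell. NHP2, at -0.09 (SE 0.043, adjusted p = 0.091), and NOP10, at -0.04 (SE 0.045, adjusted p = 0.46), did not pass, and neither did GAR1, with a log2 difference of 0.07 (SE 0.070, adjusted p = 0.40). GAR1 values were 32.7, 28.8 and 32.8 CPM in the controls and 34.8, 34.9 and 29.7 CPM with miR-19a, so the groups overlapped. Leaving out 1 library moved GAR1 between 0.01 (without miR-NC replicate 2) and 0.15 (without miR-19a replicate 3). DKC1 counts were 5.64, 6.61 and 6.04 times those of GAR1 in miR-NC and 4.35, 4.67 and 5.08 times in miR-19a (exact permutation p = 0.10, adjusted 0.20). The ratios of DKC1 to NHP2 and to NOP10 overlapped between groups (exact permutation p = 0.20 for each). NHP2 passed as lower when miR-NC replicate 2 (-0.14, adjusted p = 0.0029) or miR-19a replicate 3 (-0.13, adjusted p = 0.022) was left out, and with library totals alone (adjusted p = 0.0451). Without miR-NC replicate 1 it stood at -0.04. It shares 27.4% of its exon bases with RMND5B on the opposite strand, and whether the counting used strand is not stated.

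Among the 12 factors of the small subunit processome and the later small subunit precursor, 6 (50%) fell and 0 rose. Of all tested genes 23.5% fell and 24.9% rose. All 12 values lay below 0 (median -0.17), where 6315 of 12452 tested genes did. DDX10, a DEAD-box helicase, had 52.2, 54.0 and 52.8 CPM in miR-NC and 41.61, 40.01 and 39.65 CPM in miR-19a, or -0.39 on the log2 scale (SE 0.058, adjusted p = 3.9e-08). WDR3, a WD-repeat subunit of the processome, had 60.2, 61.5 and 63.4 CPM against 47.96, 48.83 and 49.96 CPM, a change of -0.33 (SE 0.055, adjusted p = 4.9e-07). It is the carrier of the coding 8mer, and 17.1% of its exon bases are shared with SPAG17 on the opposite strand, which had at most 3 counts in a library. NOB1, the endonuclease of the final cut of the small subunit RNA, had 103.3, 106.2 and 112.2 CPM in the controls and 85.4, 83.9 and 86.2 CPM with miR-19a (-0.33, SE 0.046, adjusted p = 9.1e-09). In each of these genes the highest miR-19a library lay under the lowest control.

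RRP9, a protein of the U3 snoRNP, fell by 0.31, and WDR43 and UTP15, which join the nascent transcript early, by 0.25 and 0.21. UTP4, of the same early subcomplex as WDR43 and UTP15, did not pass at -0.05 (SE 0.044, adjusted p = 0.33), with 108.7, 113.2 and 114.4 CPM in miR-NC and 108.0, 105.3 and 110.6 CPM in miR-19a. UTP20, UTP14A and RRP12 did not pass at -0.06, -0.08 and -0.08. Leaving out miR-NC replicate 1 moved UTP20 to -0.12 and UTP14A to -0.05, and UTP20 stood at -0.01 if miR-NC replicate 2 was left out instead. BYSL and NOP14 did not pass at -0.12 and -0.11 in the full comparison. Without miR-NC replicate 3 both passed as lower (BYSL -0.16, adjusted p = 0.033, NOP14 -0.16, adjusted p = 0.021). BYSL also passed without miR-19a replicate 2 (-0.15, adjusted p = 0.0498) and with library totals alone (adjusted p = 0.0368). NOP14 shares 17.1% of its exon bases with NOP14-AS1 on the opposite strand, which had up to 187 counts in a library. NOP14 itself had 861 to 1022, and the strand setting of the counting is not stated.

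Of the 11 large subunit assembly factors 7 (63.6%) fell and 0 rose, against 23.5% and 24.9% of all tested genes. All 11 values lay below 0, with a median of -0.15, where 6315 of 12452 tested genes lay below 0. Values ran from -0.22 to -0.01. Nucleostemin (GNL3), a nucleolar GTPase, had 114.4, 110.9 and 115.3 CPM in miR-NC and 99.9, 100.3 and 92.1 CPM in miR-19a (log2 fold change -0.22, SE 0.046, adjusted p = 3.6e-05). NOP16 had 74.5, 68.0 and 72.1 CPM against 59.7, 62.3 and 62.6 CPM, a change of -0.22 (SE 0.052, adjusted p = 0.00036). Its exons overlap HIGD2A and ARL10 on the opposite strand over 7.93% and 12% of exon bases. HIGD2A had up to 1676 counts in a library, above the 969 to 1247 of NOP16, and ARL10 up to 9. The strand setting of the counting is not stated, so the NOP16 count is uncertain. PES1 and WDR12, partners in the PeBoW complex of large subunit processing, changed by -0.21 (SE 0.042, adjusted p = 2.9e-05) and -0.19 (SE 0.055, adjusted p = 0.0031). PES1 values were 153.8, 145.8 and 154.9 CPM in the controls and 134.8, 126.2 and 132.3 CPM with miR-19a, without overlap. BOP1, the other partner, was not analysed here. The WDR12 call ended with limma on TPM (adjusted p = 0.056).

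The smallest falls among the 7 were those of RRP1 at -0.17, RRS1 at -0.15 and EBNA1BP2 at -0.13. RRP1 lost its call when miR-NC replicate 1 (adjusted p = 0.15) or miR-19a replicate 1 (adjusted p = 0.11) was left out, and also with DESeq2 (adjusted p = 0.066), no filter (adjusted p = 0.076) and limma on TPM (adjusted p = 0.056). EBNA1BP2 lost its call when miR-NC replicate 3 (adjusted p = 0.11) or miR-19a replicate 1 (adjusted p = 0.090) was left out, and with limma on TPM (adjusted p = 0.15). DDX18, a helicase with a 7mer-m8 site, had 140.5, 141.0 and 143.2 CPM in miR-NC and 138.0, 137.3 and 126.1 CPM in miR-19a. It did not pass (-0.08, SE 0.043, adjusted p = 0.11), although the 3 miR-19a values were the 3 lowest, and without miR-19a replicate 3 it stood at -0.04. NOP2, an RNA cytosine methyltransferase, did not pass at -0.10 (SE 0.044, adjusted p = 0.061). NOP2 did pass when miR-NC replicate 2 (adjusted p = 0.044), miR-19a replicate 1 (adjusted p = 0.049) or miR-19a replicate 3 (adjusted p = 0.028) was left out. It also passed with a mean FPKM of at least 5 (adjusted p = 0.0462) and with library totals alone (adjusted p = 0.0284), and without miR-19a replicate 2 it stood at -0.05. Of its exon bases 54.4% are shared in GENCODE v29 with AC006064.6 on the same strand, a gene without an entry in the deposited table. An effect of this overlap on the NOP2 count was not tested. PPAN, the member with the lowest level, stood at -0.10 with an SE of 0.12, and at -0.0099 without miR-NC replicate 2. PPAN shares 56% of its exon bases with the readthrough gene PPAN-P2RY11 on the same strand, which had 0 counts in every library, so the PPAN count is uncertain. NIP7 did not pass at -0.01 (SE 0.048, adjusted p = 0.89), with controls between 78.8 and 81.5 CPM and miR-19a samples between 79.5 and 80.1 CPM. It shares 20.2% of its exon bases with COG8 on the opposite strand. COG8 had up to 472 counts in a library and NIP7 1272 to 1420, so the NIP7 count is uncertain as well.

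Among the multifunctional nucleolar proteins, 3 of 5 (60%) fell, against 23.5% of all tested genes. NOLC1, a phosphoprotein that chaperones snoRNPs, had 263.2, 251.2 and 269.6 CPM in miR-NC and 201.9, 212.2 and 208.4 CPM in miR-19a, or -0.33 on the log2 scale (SE 0.039, adjusted p = 5.1e-11). Nucleolin (NCL), which binds the ribosomal RNA precursor, had 926.9, 900.8 and 957.0 CPM against 801.2, 798.9 and 797.0 CPM (-0.22, SE 0.036, adjusted p = 5.1e-07). The NCL groups did not overlap, and the 3 miR-19a values lay close together. Nucleophosmin (NPM1), a histone and ribosome chaperone, had 1170.8, 1061.0 and 1211.4 CPM in the controls and 1057.6, 1031.8 and 1043.0 CPM with miR-19a. The groups nearly touched at miR-NC replicate 2, and the change was -0.14 (SE 0.038, adjusted p = 0.0018), a call that ended with limma on TPM (adjusted p = 0.13). NPM1 has 49 annotated copies whose summed counts reached 10.1% of its own, so reads may be shared between them. How far this changes the NPM1 count was not tested. LYAR did not pass at -0.05 (SE 0.070, adjusted p = 0.61). DDX21, a helicase that acts in both ribosomal RNA and messenger RNA transcription, had 322.7, 317.6 and 318.9 CPM in miR-NC and 339.9, 347.1 and 325.2 CPM in miR-19a. All 3 miR-19a values were above the controls, but the change of 0.08 (SE 0.037, adjusted p = 0.081) did not pass. Without miR-19a replicate 3 it did (0.10, adjusted p = 0.026).

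Per transcript length, the members spanned 2.65 to 301.5 FPKM in miR-NC, with a median of 24.4. NPM1 (301.5 FPKM), NOP10 (283.7 FPKM), FBL (171.5 FPKM), NCL (134.7 FPKM) and NHP2 (128.3 FPKM) were the highest, and PPAN (2.65 FPKM), WDR3 (6.04 FPKM) and DDX10 (6.30 FPKM) the lowest. Both abundant and scarce members were among the larger falls, FBL at 171.5 FPKM and POLR1B at 8.74 FPKM. With miR-19a, FBL stood at 121.6 FPKM, above NHP2 (119.5 FPKM) and NCL (114.7 FPKM), as in the controls.

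**Figure D3:**
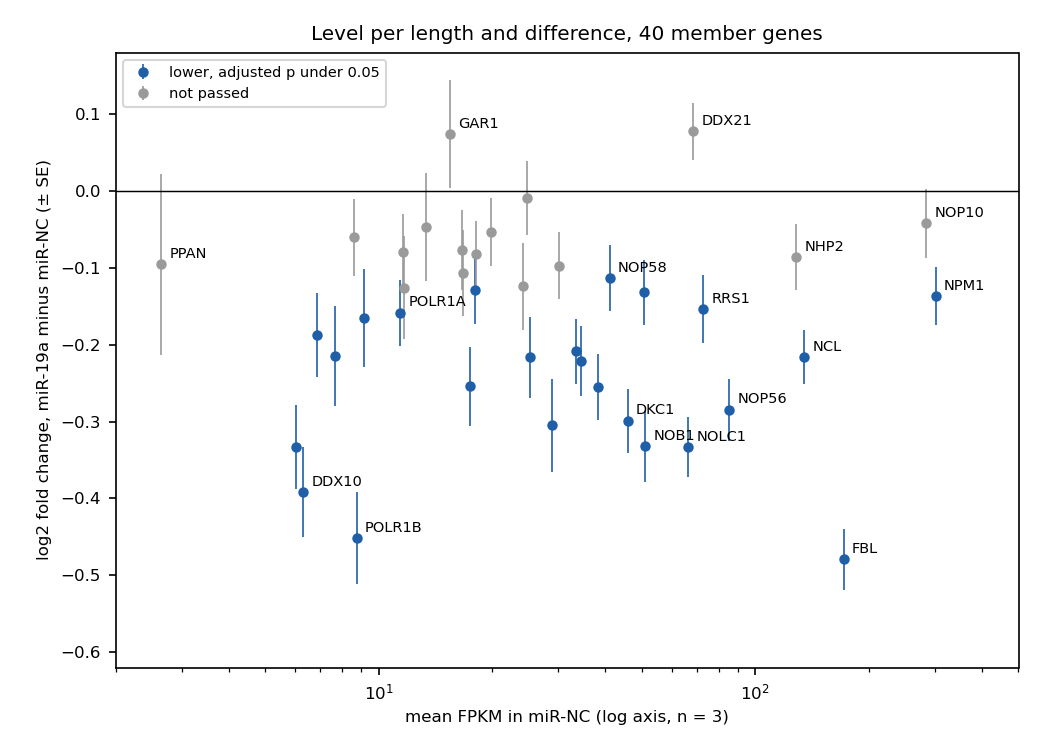
Mean FPKM in miR-NC (log axis, n = 3) against log2 fold change with 1 standard error for each of the 40 genes, blue where lower at an adjusted p under 0.05. Falls occur across the range of levels, from WDR3 at 6.04 FPKM to NPM1 at 301.5 FPKM.

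Few members carried a 3′ UTR site of 7 or more bases (7.5%, against 18.6% of tested genes with a 3′ UTR). Members that fell and members that did not pass were not tested against each other for sites. Of the 24 lower members, 22 had no site of 7 or more bases in the 3′ UTR, and 18 of them had no 6mer either. The other 4, FBL, WDR3, WDR12 and RRP1, had a 6mer as the strongest site. DKC1 and POLR1A were the lower members with a longer site, and DDX18, the third carrier, did not pass. Of the 8 members with a coding site, POLR1B, WDR3, UTP15, NPM1 and NOP58 fell, and NOP2, RRP12 and DDX21 did not pass. Among all members 60% were lower and among tested genes 23.5%, and these carriers were not tested against other members.

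Promoters were read from RefSeq (GRCh38.p14), from 250 bases before to 50 after each gene's start, because many members moved together. An entry was found for 35 members. NOLC1, RRS1, NOP58, DDX18 and RRP12 had none. The E-box CACGTG, a palindrome bound by MYC and related factors, was present in 12 of 35 member promoters (34.3%), against 10.4% of 9033 promoters of tested genes and 7.43% of all 27305 promoters. It occurred in 5 of 21 members that fell (FBL, PES1, RRP9, WDR43 and EBNA1BP2) and in 7 of 14 that did not pass. Other words were searched on both strands. The ETS word CCGGAAGT was in 6 member promoters (17.1%, against 9.78% of tested genes), and NRF1's GCATGCGC in 3 (8.57% against 5.94%). CTCGCGAG, the ZBTB33 word, was in 3 (8.57% against 2.19%), and YY1's AAGATGGC in 2 (5.71% against 6.01%). GGGCGG, the SP word, was in 25 (71.4% against 72.2%) and TATAAA in 1 (2.86% against 5.06%). None of these words contains another, although neighbouring matches may overlap. A match is a description of these letters and does not show binding.

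In 8 of the 12 members the whole E-box lay between 50 bases before the start and base 30 of the transcript. These stretches of 80 bases are printed to show how close it lies to the start, which is base 51 of each line. Capitals mark the E-box, and each line reads in the direction of transcription. The first 4 genes fell and the last 4 did not pass. On GRCh38.p14 they lie at chr19:39846350-39846429 (FBL, minus strand), chr22:30591881-30591960 (PES1, minus), chr3:51941875-51941954 (RRP9, minus), chr2:28894617-28894696 (WDR43, plus), chr15:34343107-34343186 (NOP10, minus), chr4:2963377-2963456 (NOP14, minus), chr12:101280055-101280134 (UTP20, plus) and chr16:69132599-69132678 (UTP4, plus).

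FBL: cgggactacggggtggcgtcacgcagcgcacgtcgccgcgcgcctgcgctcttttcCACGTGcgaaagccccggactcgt
PES1: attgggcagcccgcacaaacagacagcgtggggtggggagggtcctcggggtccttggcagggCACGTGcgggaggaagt
RRP9: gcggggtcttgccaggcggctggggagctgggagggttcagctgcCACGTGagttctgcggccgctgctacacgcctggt
WDR43: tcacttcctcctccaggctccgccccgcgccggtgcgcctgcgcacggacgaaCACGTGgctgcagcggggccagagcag
NOP10: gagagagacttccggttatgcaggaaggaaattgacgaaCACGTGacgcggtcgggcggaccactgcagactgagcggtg
NOP14: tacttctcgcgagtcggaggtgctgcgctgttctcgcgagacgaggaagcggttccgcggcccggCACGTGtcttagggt
UTP20: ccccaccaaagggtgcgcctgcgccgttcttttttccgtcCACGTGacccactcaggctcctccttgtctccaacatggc
UTP4: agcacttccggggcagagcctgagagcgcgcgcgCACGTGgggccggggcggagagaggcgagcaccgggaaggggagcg

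The E-box began 16 bases before the start in UTP4, 11 in NOP10, 10 in UTP20 and 5 in RRP9, and at transcript base 4 in WDR43, 7 in FBL, 14 in PES1 and 16 in NOP14. MYC itself fell from 146.0 ± 3.16 to 126.9 ± 2.18 CPM (SD, n = 3), or -0.20 on the log2 scale (SE 0.042, adjusted p = 4.1e-05). A part of MYC or of the E-box in the members' changes was not tested.

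Position in the genome and resident snoRNA genes varied among members. The members lie on 18 chromosomes, with 7 on chromosome 2. Same-strand snoRNA genes lie within 7 of them, with 6 in GNL3, 5 in NOP56, 4 in NOP58, 3 each in NCL and WDR43 and 2 each in DKC1 and PPAN. Of these hosts 6 fell and PPAN did not pass, beside 60% lower among all members and 23.5% among tested genes, and the hosts were not tested against other members.

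Other factors of the same pathway moved in both directions. Over 149 tested genes of 5 further lists, 40 (26.8%) were lower and 23 (15.4%) higher, against 23.5% and 24.9% of all tested genes, and the median log2 fold change was -0.05. Other small subunit factors were lower in 12 and higher in 6 of 46 cases. IMP4, a U3 snoRNP protein, fell by 0.35 and PWP2, a processome subunit, by 0.43, while RRP7A and ABT1 rose by 0.23 and 0.25. Other large subunit factors were lower in 11 and higher in 9 of 50. URB1 and the helicase DDX56 fell by 0.32 and 0.24, and ZNF622 and SBDS, which act on the cytoplasmic large subunit, rose by 0.35 and 0.44. SBDS went from 102.5 ± 4.03 to 138.9 ± 4.14 CPM (SD, n = 3). These lists and the members were not tested against each other.

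Among 16 other RNA polymerase I genes 4 (25%) fell and 0 rose, against 23.5% and 24.9% of all tested genes. POLR1G, a subunit specific to this polymerase, had a log2 fold change of -0.40, from 66.7 ± 0.338 to 50.6 ± 1.46 CPM, close to that of POLR1B. POLR2L, a small subunit shared by the nuclear polymerases, also stood at -0.40. Of 12 snoRNP assembly factors 5 (41.7%) fell and 3 (25%) rose. The ATPases RUVBL1 and RUVBL2, which help to load the core proteins, stood at -0.27 and -0.20. The Cajal body protein coilin (COIL) rose by 0.32 and ZNHIT6 by 0.20. Of 25 nucleases and their cofactors 8 (32%) fell and 5 (20%) rose. The exosome subunits EXOSC7 and EXOSC2 stood at -0.57 and -0.42 and the exosome cofactors C1D and MPHOSPH6 at 0.46 and 0.23.

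Most cytosolic ribosomal protein genes did not pass. Of 78 tested, 6 (7.69%) were lower, 7 (8.97%) higher and 65 did not pass, with a median log2 fold change of 0.01. Both shares lay below those of all 12452 tested genes, where 23.5% were lower, 24.9% higher and 6429 genes did not pass. RPL29 and RPL13A fell by 0.24 and 0.17, and RPL28 and RPL31 rose by 0.23 and 0.16. Summed ribosomal protein CPM ran from 51739 to 56344 in miR-NC and from 54442 to 56226 in miR-19a, and the groups overlapped. Reads of ribosomal protein genes may be shared with their many copies in the genome.

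Of 17 tested regulators of ribosome synthesis 7 (41.2%) fell and 8 (47.1%) rose, against 23.5% and 24.9% of all tested genes. PRKAA1, which encodes a catalytic AMP-activated kinase subunit, had the largest change of these lists at -1.13 (SE 0.055, adjusted p = 1.1e-27). MAF1, a repressor of RNA polymerase III, fell by 0.32. BAZ2A, a subunit of the complex that silences ribosomal DNA, rose by 0.27 and MDM2, the ubiquitin ligase of p53, by 0.23, although its groups overlapped.

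**Figure D4:**
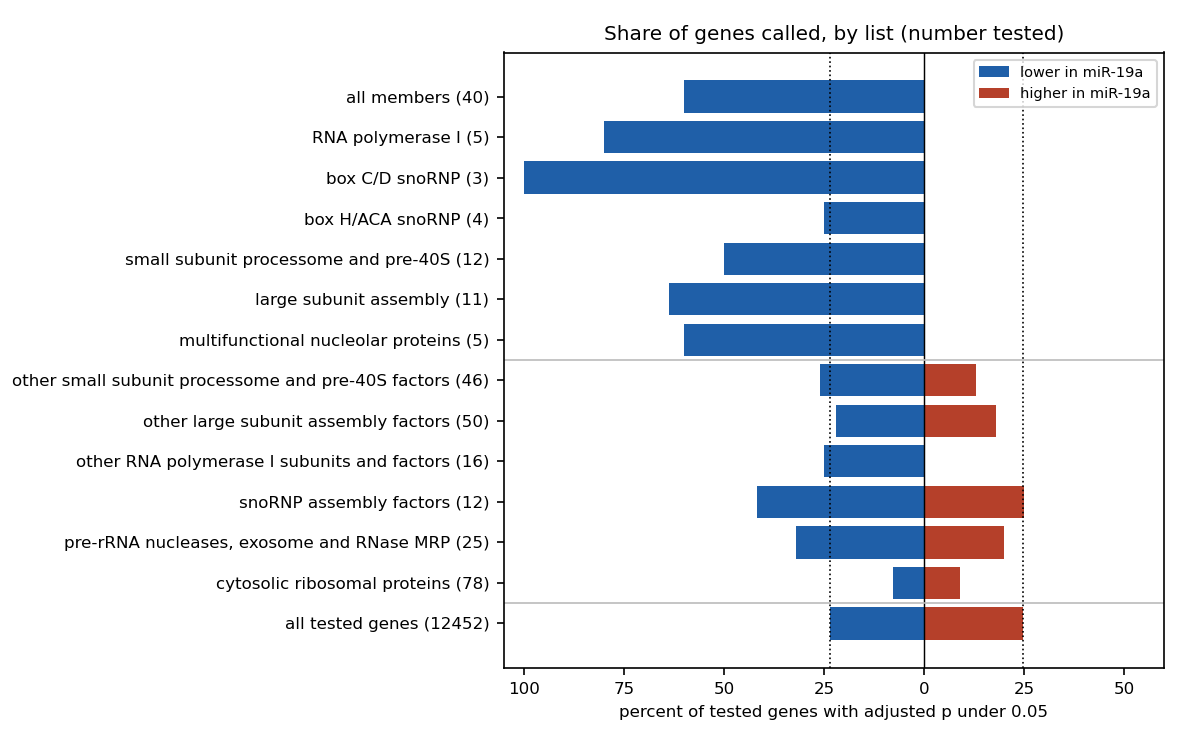
Percent of tested genes called lower (blue, to the left) and higher (red, to the right) in miR-19a for all 40 genes, for each role, for 6 further lists and for all 12452 tested genes, whose shares are repeated as dotted lines. All 40 genes together show 60% lower and 0 higher, and the ribosomal proteins 7.69% lower and 8.97% higher.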

How the data were processed

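The authors deposited a table with a count and an FPKM value for each gene identifier in each of the 6 libraries. Per the file headers the FPKM columns are scaled for length and depth, and the deposited counts are whole and not normalized. The submitters' processing notes name bcl2fastq 2.17.1.14. Not given in the sources used here are aligner, counter, annotation, strand setting and genome build.

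Members, lists and words were chosen with earlier results of these data known. A gene name table gave symbols for 51996 identifiers and GENCODE v29 for 342, and 5567 had none. 6 list entries, among them BOP1, were not analysed here. Genes whose FPKM averaged 1 or more were tested on counts with edgeR 4.0.16 (R 4.3.3), TMM factors and a quasi-likelihood test, two-sided, with Benjamini-Hochberg adjustment over 12452 genes. CPM are TMM-scaled. Each SE is |log2 fold change| divided by the root of the F statistic. The test was checked on simulated counts. limma 3.58.1 on log2(FPKM + 1), log2(FPKM + 0.1) and log2(TPM + 1), DESeq2 1.42.0, other filters and factors, a replicate block and each library left out served as alternatives. 3′ UTRs are those of the transcript with the longest coding sequence. No label gives a batch.

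Members named with a value in every sample were the 3 largest falls of each role past the threshold, at most 2 rises, and carriers of a 3′ UTR site. UTP4, GAR1 and DDX21 were added after their values were seen. At most 2 rising and 2 falling genes of each further list, by adjusted p, and MYC are named.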

Additional observations from a re-analysis of the deposited data

How the results depend on the processing

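The number of members called lower, 24 in the comparison as reported, lay between 17 (limma on TPM) and 27 (library totals alone) over 16 alternatives, and 17 of the 24 genes passed under each alternative. Of all tested genes 18% were lower with limma on TPM and 25.1% with library totals alone. That share ran from 10% (no filter) to 27% (mean FPKM of at least 5). All 24 kept a negative log2 fold change throughout. Leaving out 1 library gave 21 to 26 members lower and 0 to 1 higher, the 1 being DDX21 without miR-19a replicate 3. Of all tested genes 20.5% to 22.5% were lower in those runs. The genes of the further lists, 53 lower and 38 higher of 244, changed to 34 lower with limma on TPM and to 21 higher with limma on log2(FPKM + 1) and on log2(FPKM + 0.1), and the cause was not tested. Leaving out 1 library gave 40 to 68 of them lower and 27 to 36 higher. Signs that turned belonged to members that did not pass: leaving out 1 library moved LYAR between -0.1062 and 0.0038, above 0 without miR-NC replicate 3 (0.0007) or miR-19a replicate 3 (0.0038), and NOP10 between -0.0966 and 0.0279, above 0 without miR-NC replicate 1. NIP7 turned with limma on TPM (0.0125). With the replicate number as a block, 24 members were lower and 0 higher, and 52 and 37 of the further genes. Of all tested genes 23.3% were lower with that block. Same-numbered samples did not deviate together (correlations of -0.010, 0.012 and -0.046), so the numbers were not taken to pair samples. Carriers of a 3′ UTR site numbered 3 with the longest 3′ UTR as well. Over the alternatives the median log2 fold change of all tested genes ran from -0.0202 (library totals alone) to 0.0181 (limma on TPM). The members' median was -0.16 with library totals alone and -0.12 with limma on TPM. Low counts, as for PPAN, limit what can be called.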
